A study of Mus musculus with 14 samples.

Results

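The collagen chain genes are the genes whose mouse symbol is Col, a number, the letter a and a number, such as Col1a1 or Col4a2. The rule used names only, and it found 44 of the 55487 genes counted in each table. RNA had been sequenced from 14 libraries in all. Mesenchymal stromal cells (MSC) were grown for 21 days from the bone marrow of wild-type C57BL/6 mice and then given PBS (2 libraries, replicates 2 and 3) or IL-1β at 5 ng/ml (2 libraries, replicates 1 and 2) for 72 h. LSK cells (Lin-Sca1+c-kit+), the marrow fraction that holds the stem cells, and LK cells (Lin-c-kit+), which are mostly progenitors, were sorted from C57BL/6 mice whose blood carried a heterozygous Jak2V617F knock-in allele, switched on through Mx1Cre, after 16 weeks of intraperitoneal injections, 3 each week. LSK and LK each had 3 libraries from PBS mice and 2 from mice given 0.5 μg of IL-1β per injection. Both treatments carried that allele. The mice were irradiated C57BL/6 recipients of Jak2V617F marrow. The labels say neither whether the MSC libraries came from separate mice nor how many mice stand behind a sorted library, and the p-values measure the spread between these libraries only.

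Collagens are extracellular proteins built from chains that wind around each other into a helix, and each chain has a gene of its own. Fibrillar collagens (types I, II, III, V, XI, XXIV and XXVII) form the fibres of bone, skin and scar, and types I and III are the fibres whose deposition is stained for in marrow fibrosis. Type IV forms the sheet of basement membranes, type VI forms beaded filaments around cells, and the FACIT collagens sit on the surface of fibrils. Type I is a heterotrimer of the products of Col1a1 and Col1a2, whereas type III needs only Col3a1. Marrow stroma and bone-forming cells are the known sources of fibrillar collagen in marrow, and IL-1β is an inflammatory cytokine that acts on such cells through IL-1R1. The MSC comparison asks how IL-1β affects collagen expression in cultured stroma, and the LSK and LK libraries were set beside it to show which chains the blood-forming cells themselves transcribe.

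Libraries held 4393233 to 30871055 counted read pairs. Within LSK and within LK cells every IL-1β library was shallower than every PBS library (for LSK at most 8641124 against at least 12172400), so depth and treatment cannot be told apart there. Levels are given as CPM, the count scaled to 1000000 read pairs after TMM normalization, when libraries are compared, and as TPM, which also divides by the exonic length of the gene, when genes are compared. A gene never above 3 counts within a group was taken to be at the floor. Mesenchymal markers other than collagens were present in MSC libraries, Pdgfrb at 22.1 to 43.0 TPM and Pdgfra at 6.53 to 10.8 TPM, whereas Lepr was at 0 in both PBS libraries. Macrophage genes were far more abundant in the same libraries. The 18 macrophage markers summed to 56484 and 45314 TPM in the PBS cultures and to 91317 and 91108 TPM after IL-1β, none of them being at 0, against 917 to 1537 TPM for the 16 mesenchymal markers. With IL-1β, 3 of the 14 mesenchymal markers tested were called higher and 0 lower. Lyz2, the macrophage lysozyme, alone stood at 10467 to 45912 TPM. Of the 18 macrophage markers, 9 were called higher with IL-1β and 0 lower, beside 7.14% and 4.31% of all genes tested. In bulk RNA, fewer cells of a type and less RNA per cell cannot be told apart, and the part of these other cells in the collagen values was not tested.

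MSC expressed a broad set of chains. Counts exceeded 3 in every MSC library for 29 of the 44 genes, and 15 had a mean above 10 TPM. Col1a1 was the most abundant (mean 408 ± 174 TPM, SD over the 4 libraries), followed by Col3a1 (265 ± 189 TPM) and Col1a2 (213 ± 50.6 TPM), and the values of neighbours in this order overlapped between libraries. The order of the latter pair turned with treatment: Col1a2 exceeded Col3a1 in both PBS libraries (264 and 145 against 160 and 52.5 TPM), and Col3a1 exceeded Col1a2 in both IL-1β libraries (404 and 443 against 208 and 235 TPM). Col6a1 came next at 124 ± 31.0 TPM, ahead of Col5a2 (83.0 ± 32.9 TPM), Col5a1 (61.9 ± 14.2 TPM), Col4a1 (59.4 ± 12.4 TPM) and Col4a2 (56.3 ± 11.4 TPM), whose SD ranges again overlapped. Chains that mark cartilage were low: Col2a1 reached 0.943 to 3.20 TPM, Col10a1 had 4 to 18 counts and Col11a1 0.153 to 2.69 TPM. Of the 44 genes 10 stayed at the floor in all MSC libraries, and 5 of them (Col4a4, Col6a5, Col6a6, Col13a1 and Col26a1) had no count at all. Col4a3 and Col4a4, which encode chains found in the kidney filter's basement membrane, were among those 10, as were Col9a1, Col17a1 and Col25a1. Col4a5, whose product joins theirs there, was above the floor in every MSC library.

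**Figure D1:**
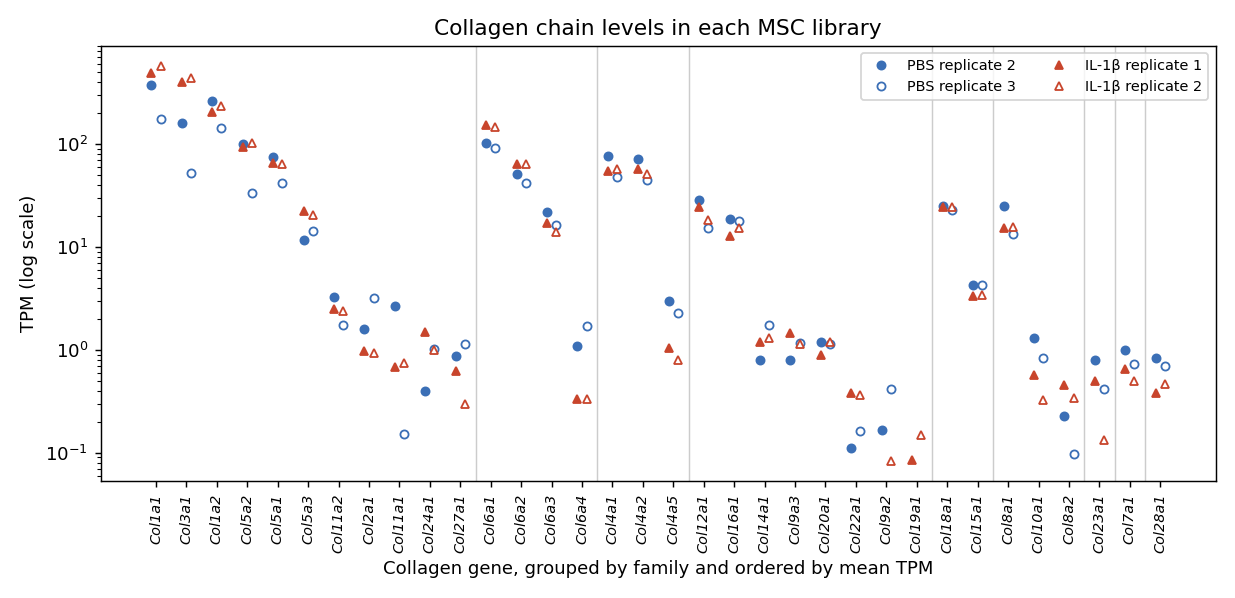
TPM on a log axis of the 34 collagen genes with more than 3 counts in at least 1 MSC library, grouped by family (fibrillar, beaded filament, basement membrane, FACIT, multiplexin, short-chain network, transmembrane, anchoring and other, from left to right) with 1 point per library. The open circle of PBS replicate 3 lies below the other libraries for Col1a1, Col3a1 and Col5a2, and values of 0 (Col19a1 with PBS, Col9a2 in 1 IL-1β library) are not drawn.

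With IL-1β, 2 collagen genes rose and 2 fell in MSC, of the 31 that had enough counts to be tested. The other genes were not tested because of low counts. Those that rose were Col6a1, a chain of the beaded filaments, and Col5a3, a minor chain of type V that joins type I fibrils. Col6a4, a further type VI chain, and Col4a5, a basement membrane chain, fell. Among all 13239 genes tested by edgeR's quasi-likelihood test, 11.4% were called, 7.14% higher and 4.31% lower, which is close to the share of collagen genes called. A call needed a Benjamini-Hochberg adjusted p below 0.05 together with a log2 fold change beyond 0.5 in either direction. Under upper-quartile scaling the split of all calls moved from 945 higher and 570 lower to 817 and 831. For the 31 collagen genes the median log2 fold change was -0.11, and for all genes tested it was 0.0044. Levels of the IL-1β and the PBS libraries did not overlap for 16 collagen genes, 6 higher and 10 lower, beside 61.2% of all genes tested (31.3% higher and 29.8% lower). No collagen gene was called when either IL-1β library was left out, while 9 were called higher and 4 lower without PBS replicate 2, and 5 higher and 4 lower without PBS replicate 3. Calls over all genes moved alike in these fits, to 38 higher and 0 lower of 13782 and to 80 and 2 of 14040 without IL-1β replicates 1 and 2, and to 2038 higher and 1781 lower of 14006 without PBS replicate 2 and 1639 and 1155 of 13645 without PBS replicate 3. In these fits the single library left in an arm is assumed to vary like those of the other.

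**Figure D2:**
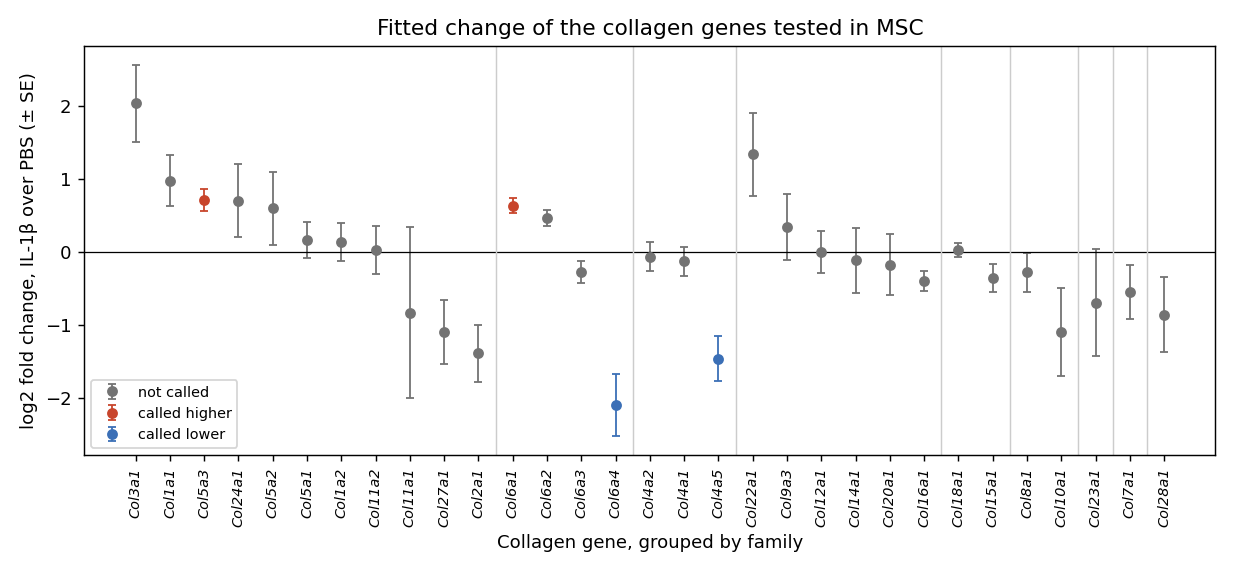
Fitted log2 fold change (IL-1β over PBS, bars ± SE) of the 31 collagen genes tested in MSC, in family order, with red points called higher, blue points called lower and grey points not called. Col3a1 and Col22a1 lie highest but with wide bars, whereas Col6a1, at 0.64, has the narrow bar that passed the test.

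Col3a1 (chromosome 1, 45311538-45349706 on GRCm38, plus strand) encodes the only chain of type III collagen, and its read counts with PBS were 3064 and 2385 in replicates 2 and 3, against 40418 and 16970 with IL-1β. Scaled to library size, its level was 511 and 180 CPM in the PBS cultures against 1325 and 1498 CPM after IL-1β. Both IL-1β libraries were thus higher than both PBS libraries, which themselves differed 2.84-fold. The fitted log2 fold change was 2.04 (SE 0.53), the largest positive one of the tested collagen genes, and edgeR's adjusted p was 0.085, so that Col3a1 was not called. It passed with DESeq2 (adjusted p 0.0278) and with limma-voom (adjusted p 0.0281), within a range of 3.34e-14 to 0.449 over all alternatives, and its log2 fold change ranged from 1.47 to 2.98 when single libraries were omitted.

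The type I chains gave unlike values. Col1a1 (chromosome 11, 94936224-94953042, plus strand), which supplies most of the type I heterotrimer, was at 814 and 406 CPM under PBS, against 1086 and 1312 CPM under IL-1β. Its groups did not overlap, and the log2 fold change of 0.98 (SE 0.35) did not pass (adjusted p 0.147), though it did without a filter on low counts (adjusted p 0.0101, range over alternatives 1.57e-09 to 0.57). Col1a2 (chromosome 6, 4504814-4541544, plus strand) was at 1068 and 629 CPM in PBS and 864 and 1006 CPM in IL-1β libraries, values that overlapped. Its log2 fold change was 0.14 (SE 0.26, adjusted p 0.762) and changed sign with the PBS library omitted, from 0.58 without replicate 2 to -0.19 without replicate 3.

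Among the type V chains, which set the diameter of type I fibrils, Col5a3 (chromosome 9, 20770050-20815067, minus strand) was called. PBS libraries held 25.8 and 34.0 CPM and IL-1β libraries 51.3 and 48.0 CPM, with no overlap (log2 fold change 0.72, SE 0.15, adjusted p 0.0387). The far more abundant Col5a2 was at 313 and 113 CPM in PBS and 302 and 341 CPM in IL-1β libraries (log2 fold change 0.60, SE 0.50, adjusted p 0.49), with only PBS replicate 3 low. Col5a1 stood at 212, 126, 187 and 190 CPM in the same order (log2 fold change 0.17, adjusted p 0.705). Of the fibrillar genes as a group, 1 of 11 was called higher and none lower, 8 had a positive and 3 a negative log2 fold change, and their median was 0.17 against 0.0044 over all genes tested. Col2a1, the cartilage fibril chain, had 4.84 and 10.3 CPM in PBS and 2.98 and 3.00 CPM in IL-1β libraries (log2 fold change -1.38, adjusted p 0.0756).

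The base sequence before the start of a gene is shown for the collagen genes the results turn on where an exon-free stretch was at hand: Col3a1 for the largest positive log2 fold change in MSC, Col5a3 for a gene called there, and Col5a1 for the gene called in LK cells. Each run is the 250 bases that end just before the RefSeq start (build GRCm38.p6), 5′ to 3′ on the strand of the gene, with matches to the searched motifs in capitals. They lie at chr1:45311288-45311537 (plus strand), chr9:20815068-20815317 (minus strand) and chr2:27886175-27886424 (plus strand).
Col3a1: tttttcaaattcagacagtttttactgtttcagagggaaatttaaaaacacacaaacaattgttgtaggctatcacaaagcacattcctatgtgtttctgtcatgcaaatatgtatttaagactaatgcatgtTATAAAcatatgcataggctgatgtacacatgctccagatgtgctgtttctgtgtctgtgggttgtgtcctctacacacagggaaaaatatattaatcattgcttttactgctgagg
Col5a3: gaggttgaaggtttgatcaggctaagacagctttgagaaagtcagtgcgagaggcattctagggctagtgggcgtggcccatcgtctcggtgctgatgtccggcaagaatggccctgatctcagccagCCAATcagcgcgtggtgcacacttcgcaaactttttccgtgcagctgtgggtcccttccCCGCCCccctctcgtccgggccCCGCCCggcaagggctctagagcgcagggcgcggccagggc
Col5a1: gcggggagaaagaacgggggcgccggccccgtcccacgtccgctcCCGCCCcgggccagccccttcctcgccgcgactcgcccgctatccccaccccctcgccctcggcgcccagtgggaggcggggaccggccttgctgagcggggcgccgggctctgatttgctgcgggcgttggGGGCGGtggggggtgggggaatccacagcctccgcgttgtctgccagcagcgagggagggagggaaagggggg
Motifs of known promoter elements were searched for on both strands. The TATA box was spelled TATAAA, and the GC box of the factor SP1 was spelled GGGCGG. The AP-1 motif was spelled TGANTCA, the CCAAT box by the letters of its name, and the NF-κB motif was searched as well, and no match in these runs overlaps another. In Col3a1 the capitals mark TATAAA, 112 to 117 bases before the start. In Col5a3 they mark CCAAT and GC boxes, and in Col5a1 GC boxes, which read CCGCCC where the match is on the opposite strand. The windows differ in composition, with a GC content of 35.2% in Col3a1, 62.8% in Col5a3 and 76.4% in Col5a1. RefSeq windows were found for 35 of the 44 collagen genes, 38 windows in all. For the shares all 250 bases of each window were used, and 18 of the 38 collagen windows held annotated exons. The TATA box motif was in 13.2% of the collagen windows and in 12.4% of all 32817 windows of that length. The CCAAT box was in 34.2% and 33.8%, the GC box in 57.9% and 32.7%, the AP-1 motif in 2.63% and 6.75%, and the NF-κB motif in none and 1.21%. The collagen windows had a median GC content of 59.0% and all windows 52.4%. A match is only a string of letters, and a missing one says no more than that these letters are absent from the window.

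The PBS cultures themselves differed in the fibrillar genes. On a scale of log2(CPM + 0.5), 6 of the 11 differed more than 2-fold between PBS replicates 2 and 3, beside 8.07% of all genes tested. The median log2 ratio of the 11 was 0.76 in favour of replicate 2, and 7 of them were higher there. Of the 6, Col24a1 (6 and 36 counts) and Col2a1 (29 and 137 counts) went the other way, higher in replicate 3. Between the IL-1β cultures no collagen gene differed more than 2-fold on that scale. Without the added 0.5, Col23a1 (0.951 and 0.265 CPM) and Col27a1 (2.72 and 1.32 CPM) differed more than 2-fold there. Some other stromal genes were lower in PBS replicate 3 too, but not all. Cxcl12, the stromal chemokine that retains stem cells, was at 115 and 24.5 TPM in PBS replicates 2 and 3, Pdgfra at 6.53 and 9.42 TPM, and the summed mesenchymal markers at 1537 and 917 TPM, while macrophage markers summed to 56484 and 45314 TPM.

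Type VI collagen is a heterotrimer of the Col6a1, Col6a2 and Col6a3 products, in which chains such as that of Col6a4 can take the place of the last. Col6a1 (chromosome 10, 76708792-76726168, minus strand) was at 146 and 141 CPM under PBS, against 226 and 222 CPM under IL-1β, close within each treatment and without overlap between them. This rise was 0.64 on the log2 scale (SE 0.10, adjusted p 0.0169). Its partner and chromosomal neighbour Col6a2 moved from 138 and 123 CPM to 177 and 183 CPM (log2 fold change 0.47, SE 0.11), which passed on its adjusted p of 0.0464 but not on the fold threshold. Col6a3, in contrast, was at 84.9 and 68.5 CPM in PBS and 68.2 and 57.8 CPM in IL-1β libraries (log2 fold change -0.27, adjusted p 0.28). Col6a4 (chromosome 9, 105989454-106096783, minus strand) fell from 3.00 and 5.05 CPM to 0.951 and 0.971 CPM (log2 fold change -2.09, SE 0.43, adjusted p 0.034) on counts of only 18, 67, 29 and 11. Of the other type VI genes, Col6a5 and Col6a6 had no count.

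Of the basement membrane chains, Col4a1 and Col4a2, whose products assemble together, were not called. Col4a1 was at 187 and 125 CPM in PBS and 137 and 148 CPM in IL-1β libraries (log2 fold change -0.12, SE 0.20, adjusted p 0.721), and Col4a2 at 154 and 103 against 127 and 118 CPM (log2 fold change -0.06, SE 0.20, adjusted p 0.864). The treatments overlapped for both. The far rarer Col4a5 (chromosome X, 141475385-141689234, plus strand) fell from 6.50 and 5.35 CPM to 2.36 and 1.85 CPM (log2 fold change -1.45, SE 0.31, adjusted p 0.0385), on 39, 71, 72 and 21 counts. Its genomic partner Col4a6 had at most 2 counts in any MSC library.

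None of the tested genes of the other families was called: 6 FACIT genes, 2 short-chain network genes, both multiplexins and 1 gene each of the transmembrane, anchoring and remaining types. Col16a1, a FACIT chain, was at 41.5 and 42.5 CPM against 28.8 and 35.3 CPM after IL-1β (log2 fold change -0.40, SE 0.14, adjusted p 0.12). Col18a1, whose product carries endostatin at its end, was at 57.4 and 56.1 CPM with PBS, against 57.3 and 58.8 CPM (log2 fold change 0.03, SE 0.10, adjusted p 0.858). Col22a1, a chain of tissue junctions, had 2 and 7 counts in PBS libraries, against 36 and 13 (log2 fold change 1.34, SE 0.56, adjusted p 0.18). Col8a2, too low for the test, had 4 counts in the PBS libraries together and 27 in the IL-1β libraries, a ratio of 3.11 after scaling with an exact 95% interval of 1.08 to 12.2 that covers counting error only. Col9a2, equally too low, had 1 and 6 counts with PBS and 0 and 1 with IL-1β, a pooled ratio of 0.0658 with an interval of 0.00146 to 0.512. Both genes were picked after their values were seen. The intervals leave out the spread between libraries and are no test of the treatment. Col19a1 had no count with PBS and 6 and 4 counts with IL-1β.

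Because chains assemble in fixed proportions, their TPM ratios were also compared within each library, as a description without a test. The ratio of Col1a1 to Col1a2 was 1.44 and 1.22 in PBS cultures, against 2.38 and 2.47 after IL-1β, so that both PBS libraries stayed below both IL-1β libraries although their absolute levels differed. In the type VI heterotrimer the ratio of Col6a3 to Col6a1 was 0.177 to 0.212 with PBS and 0.0953 to 0.111 with IL-1β, whereas Col6a1 to Col6a2 was 2.02 to 2.19 and 2.30 to 2.42. Col4a1 to Col4a2 was 1.08 in both PBS libraries and 0.962 to 1.11 with IL-1β. The ratio of Col5a1 to Col5a2 was 0.757 and 1.24 with PBS and 0.624 to 0.691 with IL-1β.

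**Figure D3:**
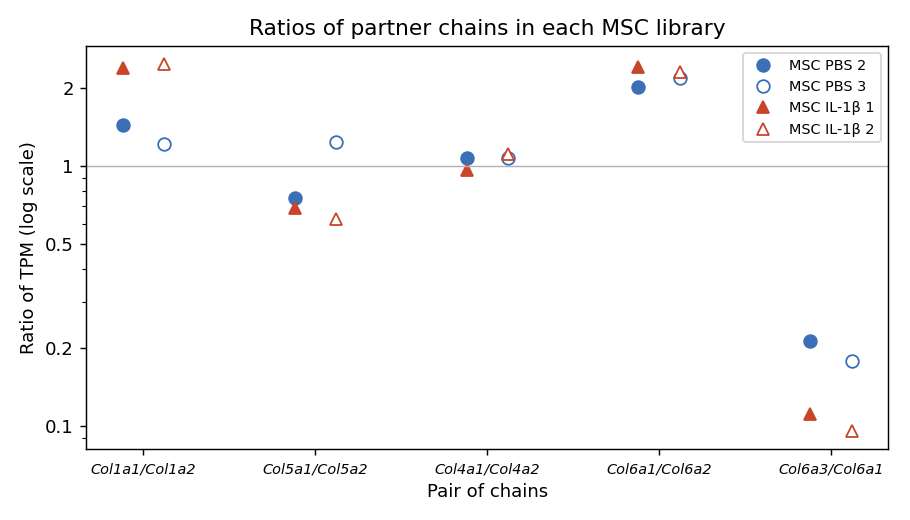
Ratio of TPM of partner chains (log axis) in each of the 4 MSC libraries, circles for PBS and triangles for IL-1β, with a grey line at a ratio of 1. Triangles lie above circles for Col1a1/Col1a2 (2.38 and 2.47 against 1.44 and 1.22) and below them for Col6a3/Col6a1, while Col4a1/Col4a2 stays near 1 in every library.

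Summed over the 44 genes, collagen took 0.413% and 0.235% of read pairs in the PBS cultures and 0.478% and 0.523% in the IL-1β cultures, a 1.55-fold difference of the means. Both IL-1β libraries exceeded both PBS libraries, and the exact two-sided permutation p was 0.333, the smallest that 2 against 2 libraries allow. The fold difference ranged from 1.21 to 2.14 when single libraries were omitted, the upper end being without PBS replicate 2. Without Col3a1, the gene with the most counts over these libraries, the difference was 1.26-fold and the groups overlapped (0.361% and 0.216% against 0.348% and 0.378%). Types I and III together made up 55.9% and 46.7% of collagen TPM in PBS cultures, against 64.0% and 67.3%. Set against the mesenchymal markers of the same library, collagen TPM was 0.935 and 0.875 of the marker sum in PBS cultures, against 1.16 and 1.22, a 1.31-fold difference (exact permutation p 0.333, again the smallest possible) that ranged from 1.27 to 1.36 when single libraries were omitted. Col3a1 alone amounted to 0.104 and 0.0572 of the marker sum in PBS cultures, against 0.270 and 0.289. Sparc, a matrix gene, made up most of that sum. It stood at 951 of 1537 and 601 of 917 TPM in PBS cultures, against 876 of 1496 and 947 of 1532 TPM. Of the markers, Dcn, Fbln1 and Twist2 were called higher with IL-1β. The ratio is thus not a measure of collagen per stromal cell.

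**Figure D4:**
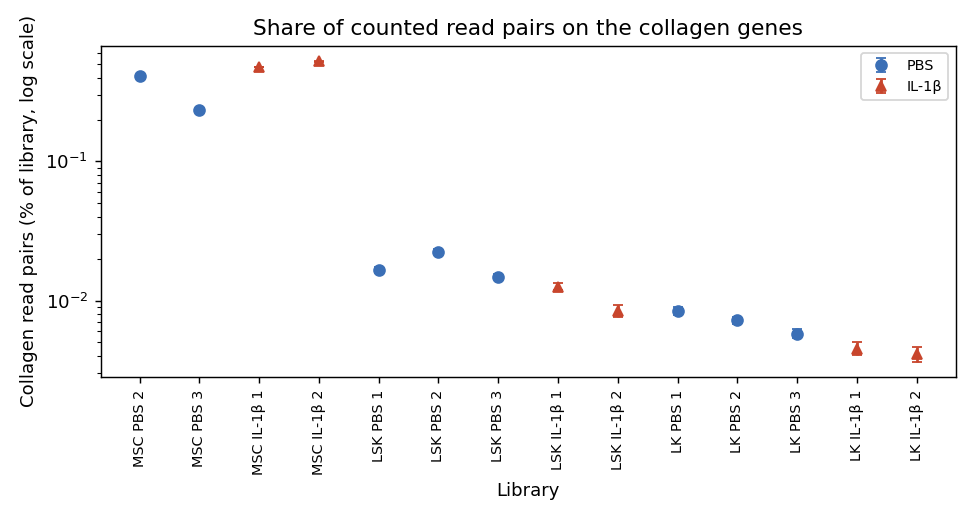
Percent of counted read pairs on the 44 collagen genes in each of the 14 libraries (log axis), blue for PBS and red for IL-1β, with Wilson 95% intervals that cover counting error only. MSC libraries lie at 0.235 to 0.523%, LSK libraries at 0.00840 to 0.0225% and LK libraries at 0.00410 to 0.00842%.

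Other genes of the collagen pathway, from modifying enzymes to inducers, were examined as 73 genes in 7 groups, of which 67 could be tested in MSC. With IL-1β, 12 were called higher and 2 lower, beside 7.14% called higher and 4.31% lower of all genes tested. The collagenases Mmp8 and Mmp13 showed the largest changes. Mmp13, the main mouse collagenase, was at 115 and 37.5 TPM in PBS cultures and 526 and 534 TPM after IL-1β (log2 fold change 2.86, adjusted p 0.043). Mmp14, its membrane-bound relative, rose by 1.58 on the log2 scale (adjusted p 0.00176). Mmp8, the neutrophil collagenase, rose from 1.27 and 1.25 TPM to 10.9 and 9.19 TPM (log2 fold change 2.99, adjusted p 0.00468). Lysyl and prolyl hydroxylases, which modify nascent chains, also rose, with log2 fold changes of 1.21 for Plod2, 1.10 for P4ha2, 0.89 for Plod1 and 0.71 for P4ha1, 4 of the 17 tested genes in that group. Furin, a propeptide-processing protease (0.70), Tgm2, a crosslinking transglutaminase (1.35), Dcn, the fibril-coating decorin (1.60), and Tgfbr2, a receptor of TGF-β (0.85), rose as well. Ddr2, a collagen receptor, fell by 0.86 on the log2 scale, and Loxl3, a crosslinking oxidase, fell by 0.56. Lox, the chief crosslinking oxidase, was at 335 and 91.9 TPM in PBS cultures, against 325 and 297 TPM (adjusted p 0.576), and Serpinh1, the collagen chaperone, at 407 and 260 against 279 and 269 TPM (adjusted p 0.406). Tgfb1, which codes for the classical inducer of collagen, had a log2 fold change of -0.19 (adjusted p 0.32).

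Several collagen genes lie beside each other in the genome. Col4a1 and Col4a2 (chromosome 8, 11198423-11312826 and 11312805-11449287) are transcribed away from each other from annotated starts that overlap by 22 bases, and they had log2 fold changes of -0.12 and -0.06 in MSC. Col3a1 and Col5a2 lie 24614 bases apart on chromosome 1 with no gene between, Col6a2 and Col6a1 lie 85161 bases apart on chromosome 10, and Col4a6 and Col4a5 lie 1308 bases apart on chromosome X. With IL-1β the log2 fold changes in MSC were 2.04 for Col3a1 and 0.60 for Col5a2, and 0.64 for Col6a1 and 0.47 for Col6a2. Between the PBS cultures Col3a1 and Col5a2 differed 2.84-fold and 2.76-fold, with replicate 2 higher. Genes on other chromosomes did so too, Col1a1 2.01-fold and Col11a1 16.5-fold. Whether neighbours are regulated together was not tested.

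In the sorted cells collagen RNA was scarce, 0.00840 to 0.0225% of read pairs in LSK and 0.00410 to 0.00842% in LK cells, and it came from other genes. Only 6 of the 44 genes had more than 3 counts in every LSK library and likewise 6 in every LK library, while 22 and 24 were at the floor throughout. Col4a2 (20.7 ± 12.6 TPM, SD over 5 libraries), Col4a1 (16.6 ± 8.85 TPM) and Col16a1 (13.4 ± 4.11 TPM) led in LSK cells, with overlapping values, followed by Col11a2 at 7.78 ± 3.52 TPM. That order was the order of the PBS libraries. With IL-1β the means were 8.98 TPM for Col16a1, 8.33 TPM for Col4a2, 8.09 TPM for Col4a1 and 7.60 TPM for Col11a2. In LK cells Col5a1 led at 12.4 ± 5.08 TPM, above Col11a2 at 4.18 ± 2.30 TPM, and the next chain, Col4a2, averaged 1.00 TPM. Of the fibrillar genes that led in MSC, Col1a1 had 1 to 16 counts and Col3a1 0 to 8 counts per sorted library, while Col1a2 had 8 to 73 counts in LSK and 7 to 79 in LK libraries, above the floor in every one.

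**Figure D5:**
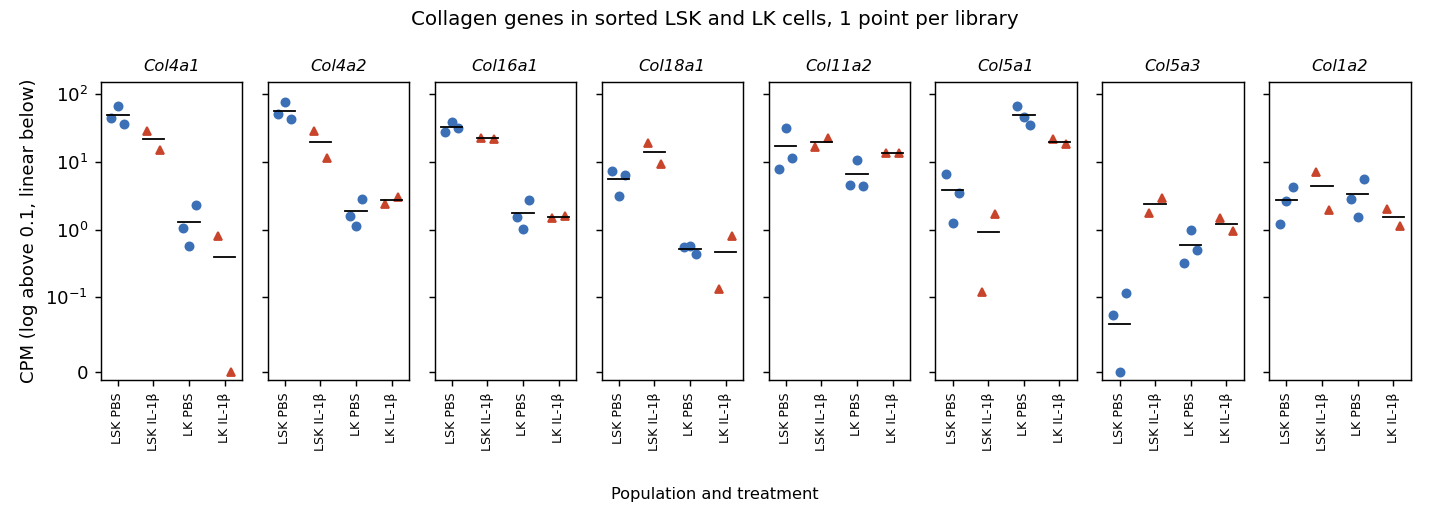
CPM of 8 collagen genes in the 10 LSK and LK libraries, circles for PBS and triangles for IL-1β with a line at the group mean, on an axis that is logarithmic above 0.1 and linear below. Col4a1, Col4a2, Col16a1 and Col18a1 lie higher in LSK than in LK cells, and Col5a1 lies the other way.

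Between LSK and LK cells of PBS-treated mice, 4 collagen genes were higher in LSK and 1 was lower, of 7 tested, beside 18.4% and 12.8% of all genes tested (31.2% in either direction). The same 5 genes were those whose libraries did not overlap, beside 50.2% of all genes tested (27.3% higher and 22.8% lower). Col4a1 was at 44.9, 66.5 and 36.4 CPM in LSK and at 1.04, 0.567 and 2.30 CPM in LK cells (log2 fold change 5.23, SE 0.50, adjusted p 0.000292). Col4a2 followed with 51.5, 77.2 and 42.5 CPM against 1.60, 1.13 and 2.87 CPM (log2 fold change 4.91, SE 0.41, adjusted p 0.000159). Their ratio in LSK cells was narrow, 0.760 to 0.773 on the TPM scale, although the levels of both varied between libraries.

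The same held for Col16a1 and Col18a1. Col16a1 was at 27.6, 38.7 and 32.0 CPM in LSK and 1.52, 1.03 and 2.73 CPM in LK cells (log2 fold change 4.19, SE 0.39, adjusted p 0.000268), and Col18a1 at 7.42, 3.10 and 6.41 against 0.559, 0.567 and 0.431 CPM (log2 fold change 3.38, SE 0.57, adjusted p 0.00296). LSK and LK libraries did not overlap for either gene. Col18a1 overlaps Slc19a1 on the opposite strand, a gene with many more counts in these cells (4118 in LSK and 8935 in LK libraries), and the counting was by strand. Col11a2, a fibrillar chain, was at 7.80, 31.5 and 11.6 CPM in LSK and 4.63, 10.7 and 4.45 CPM in LK cells, which overlapped (log2 fold change 1.33, adjusted p 0.106), but it was called once same-numbered libraries were treated as pairs (log2 fold change 1.15, adjusted p 0.026, range over alternatives 0.026 to 0.365).

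Col5a1 (chromosome 2, 27886425-28039514, plus strand) ran the other way. LK libraries of PBS-treated mice held 66.9, 46.5 and 35.7 CPM, on 838, 901 and 497 counts, and LSK libraries 6.66, 1.24 and 3.49 CPM, on 88, 16 and 60 counts (log2 fold change -3.74, SE 0.52, adjusted p 0.00136). In LK cells it stood nearly alone among the chains of its type. Its partner Col5a2 had 11, 2 and 1 counts in the same LK libraries, so the ratio of both chains was 85.4 in the 1 library where Col5a2 exceeded the floor, against 0.624 to 1.24 in MSC.

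Endothelial genes were also higher in LSK than in LK cells. All 5 of the 7 endothelial markers that were tested were called higher in LSK, and their sum was 122 to 185 TPM in LSK and 20.2 to 56.9 TPM in LK cells with PBS. Pecam1 and Tie1 were the most abundant in LSK, at 41.6 to 77.1 and 46.9 to 65.4 TPM with PBS, whereas Cdh5, a defining endothelial cadherin, was at 0 to 0.143 TPM. All 6 stem and progenitor markers were called higher in LSK as well. Among them was Ly6a, which encodes Sca-1, so its direction was fixed by the sorting. Over all genes tested, 18.4% were called higher in LSK. Of the mesenchymal markers, Pdgfra, Lum, Lepr and Cxcl12 were at or near 0 in the sorted libraries, while Pdgfrb was at 28.3 to 58.7 TPM in LSK and 6.41 to 12.5 TPM in LK cells with PBS, and 3 of the 5 tested were called higher in LSK. Whether these markers came from other cells in the sorted fractions, and any part of such cells in the collagen levels, was not tested.

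With IL-1β in vivo, no collagen gene was called in LSK cells, of 8 tested, and 4 had an unadjusted p under 0.05, beside 18.5% of all genes tested. Of all 13132 genes tested, 0.632% were called, 0.32% higher and 0.312% lower. DESeq2 called 1 collagen gene higher and 1 lower, and limma-voom none. Col4a1 was at 44.9, 66.5 and 36.4 CPM in PBS mice and 28.8 and 14.9 CPM in IL-1β mice (log2 fold change -1.12, SE 0.39, adjusted p 0.188), and Col4a2 at 51.5, 77.2 and 42.5 CPM against 28.3 and 11.3 CPM (log2 fold change -1.46, SE 0.43, adjusted p 0.14). Neither gene overlapped between treatments. Col4a2 was the gene that DESeq2 called lower (adjusted p 0.0252, range over alternatives 0.00138 to 0.639). Several marker sums moved in these libraries. With IL-1β the endothelial sum was 51.5 to 80.6 TPM against 122 to 185 TPM with PBS, 0 of 6 tested being called. The stem and progenitor sum was 436 to 531 against 787 to 1241 TPM (2 of 6 called lower), and the macrophage sum 273 to 364 against 518 to 697 TPM. The neutrophil sum rose, 7853 to 8211 against 1689 to 2659 TPM (2 of 4 called higher). Their part in the collagen levels was not tested.

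Col18a1 was at 7.42, 3.10 and 6.41 CPM in LSK cells of PBS mice and 19.05 and 9.31 CPM in those of IL-1β mice (log2 fold change 1.39, SE 0.53, adjusted p 0.214). Col5a3 had 1, 0 and 2 counts with PBS, which is at the floor, and 15 and 12 counts with IL-1β. The ratio after scaling was 31.1, and the exact 95% interval of 9.56 to 160 covers counting error only. It leaves out the spread between libraries and is no test of the treatment. Col5a3 passed the filter on low counts only through its counts with IL-1β. Its adjusted p was 0.121 by edgeR's test, and it was called by DESeq2 (adjusted p 0.0206) and when all LSK and LK libraries were fitted together (adjusted p 0.0198), with a range of 0.0198 to 0.609 over alternatives. For 5 of the 8 tested collagen genes the treatments did not overlap, 2 higher and 3 lower, beside 39.5% of all genes tested (16.7% higher and 22.8% lower). The share of read pairs on collagen was 0.0149 to 0.0225% with PBS and 0.0126% and 0.00840% with IL-1β (0.583-fold). The exact two-sided permutation p was 0.2, the smallest possible here.

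In LK cells Col5a1 fell with IL-1β and was the only one of 9 tested collagen genes to be called, beside 9.34% of all genes tested, 6.77% higher and 2.57% lower. The treatments did not overlap for 2 of the 9, 1 higher and 1 lower, beside 45.8% of all genes tested (23.4% higher and 22.4% lower). Col5a1 was at 66.9, 46.5 and 35.7 CPM in PBS mice and 21.5 and 18.3 CPM in IL-1β mice (log2 fold change -1.31, SE 0.27, adjusted p 0.026). The call was lost with limma-voom (adjusted p 0.0777), when LSK and LK were fitted together (adjusted p 0.336), and without PBS replicate 2 (0.0851) or either IL-1β library (0.209 and 0.182), the lowest value being 2.63e-12 without a filter on low counts, while the log2 fold change stayed between -1.49 and -1.04. Markers of other blood cells moved in the same LK libraries. All 4 neutrophil markers were called higher, with none at 0 and sums of 2785 to 9953 TPM with PBS and 18430 to 21996 TPM with IL-1β. The 4 erythroid markers summed to 736 to 1108 TPM with PBS and 470 to 569 TPM with IL-1β, 1 of them (Klf1) called lower. Csf1r, Ctss, Vwf and Flt3 of the macrophage, endothelial and stem cell lists were called lower too, whereas Ptprc of the macrophage list was called higher. Of the mesenchymal list, Thy1 was called higher and Eng lower. The part of these marker changes in the fall of Col5a1 was not tested. Col11a2 was at 4.63, 10.7 and 4.45 CPM in PBS mice and 13.6 and 13.3 CPM in IL-1β mice (log2 fold change 1.02, SE 0.40, adjusted p 0.16). Col5a1 was the collagen gene with the most counts in LK cells. The collagen share there was 0.00579 to 0.00842% with PBS and 0.00451% and 0.00410% with IL-1β (0.603-fold). The exact two-sided permutation p was 0.2, the smallest that this test allows for 3 against 2 libraries. The ratio turned to 1.09-fold without Col5a1.

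The responses of LSK and LK cells were compared as an interaction, in which no collagen gene was called of 10 tested, beside 0.0289% of all genes tested (0.00723% higher and 0.0217% lower). Col4a2 had the smallest p, with a difference in log2 fold change of -2.05 (SE 0.68, unadjusted p 0.0102, adjusted p 0.237), followed by Col5a3 at 3.92 (SE 1.41, adjusted p 0.26). DESeq2 and limma-voom also called none. For Col5a1 the difference was -1.11 (SE 1.07, adjusted p 0.674), so that its fall in LK cells was not shown to differ from the change in LSK cells, where it was at 6.66, 1.24 and 3.49 CPM in PBS mice and 0.118 and 1.72 CPM in IL-1β mice.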

How the data were processed

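RNA sequencing was analysed for 14 libraries. Per the file headers and the labels, the authors trimmed reads with fastp 0.20.0, aligned them with HISAT2 2.0.1 to GRCm38 and deposited read pair counts per gene from featureCounts 2.0.2 (reverse strand, Ensembl genes), without normalization; the methods also name GenomicAlignments. By the default settings, pairs on several places or genes were not counted. Symbols came from a gene name table that matched 55141 of the 55487 gene IDs, and positions from GENCODE M21 (GRCm38).

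Library totals of 4393233 to 30871055 set the precision, and shares carry Wilson 95% intervals. Counts were tested with edgeR 4.0.16 in R 4.3.3 (filterByExpr, TMM, estimateDisp, glmQLFit with robust estimation, glmQLFTest) within a population, with Benjamini-Hochberg adjustment over all genes tested. The call rule was an adjusted p below 0.05 with a log2 fold change beyond 0.5 in either direction. SE is the log2 fold change over the square root of F. Shares were compared by exact two-sided permutation with scipy 1.17.1. TPM used the exonic length in the files. The fits were tested on simulated data.

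Alternatives were DESeq2 1.42.0, limma-voom (limma 3.58.1), scaling by DESeq2's or by upper-quartile factors, tests without a filter, at least 10 counts in at least 2 libraries, no fold threshold, a joint fit, the replicate number as a block, other denominators, and each library left out in turn. Same-numbered LSK and LK libraries of PBS-treated mice had correlations over genes of 0.219, 0.133 and 0.4996. Those of LSK replicate 1 with LK replicate 2 (0.144) and of LSK replicate 2 with LK replicate 1 (0.185) were similar, so only replicate 3 stood apart. The main fits held no pairs, and the block was an alternative only.

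The members follow from their names. Values per library were given for members called in any comparison, their assembly or genomic partners, Col1a1, Col1a2 and Col3a1, and the most abundant members of each population; Col2a1, Col8a2, Col9a2, Col19a1, Col22a1, Col23a1, Col27a1 and the cartilage chains were named after their values were seen, as were the markers and pathway genes beyond those with the largest changes. Members and lists were chosen with earlier results of these data known. A further IL-1β-treated MSC library named in a file header was not analysed here.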

Additional observations from a re-analysis of the deposited data

How the results depend on the processing

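Each LSK and LK comparison rests on 3 against 2 libraries and each MSC comparison on 2 against 2, with IL-1β libraries of LSK and LK the shallower ones. No paired analysis was possible in MSC because its treatments share only 1 replicate number. Leaving out 1 library gave 0 to 9 collagen genes called higher and 0 to 4 lower in MSC, none in LSK, and 0 to 1 higher and 0 to 2 lower in LK cells, while 4 higher and 1 lower were found between LSK and LK cells throughout. Without a filter on low counts 4 genes were called higher in MSC, 2 lower in LSK, 1 higher in LK and 1 lower in the interaction (Col4a2, adjusted p 0.0176). DESeq2 called 1 higher and 1 lower in LSK, and the joint fit 1 higher in LSK and 0 lower in LK, where limma-voom also called 0 lower. With the replicate number as a block, which between treatments joins different mice (correlations of same-numbered libraries 0.0465 in LSK and -0.0193 in LK), 2 were lower in LSK (Col4a1 and Col4a2) and 1 higher in LK (Col11a2, adjusted p 0.0393); in the comparison of LSK with LK the block changed no other call than that of Col11a2. Over all genes, calls higher and lower moved by over 1.5 times in MSC from 945 and 570 to 1439 and 915 without the filter. In LSK they moved from 42 and 41 to 378 and 474 with DESeq2, 355 and 514 without the filter, 321 and 405 with the block, 547 and 681 in the joint fit, and 19 and 2 with limma-voom, and in LK from 869 and 330 to 1484 and 884 with the block, 421 and 68 in the joint fit, 1151 and 693 without the filter and 810 and 176 with limma-voom. In the interaction they moved from 1 and 3 to 108 and 216 with DESeq2, 170 and 228 without the filter, 1 and 23 with the block and 1 and 0 with limma-voom. Leaving out 1 library gave 38 to 2038 higher and 0 to 1781 lower in MSC, 3 to 280 and 0 to 200 in LSK, 61 to 1499 and 5 to 910 in LK, 1302 to 2796 and 843 to 2169 between LSK and LK, and 0 to 167 and 0 to 169 in the interaction. The causes were not tested.

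Directions changed for some genes. With upper-quartile factors the log2 fold change in MSC was -0.037 for Col11a2 and -0.032 for Col18a1. With single libraries left out, the log2 fold change in MSC ranged from -0.36 to 0.46 for Col11a2, from -0.19 to 0.58 for Col1a2, from -0.17 to 0.59 for Col5a1, from -0.39 to 0.20 for Col4a1 and from -0.33 to 0.26 for Col4a2. In LSK cells it ranged from -0.11 to 1.07 for Col11a2 and from -0.45 to 1.43 for Col1a2, and in LK cells from -0.47 to 0.30 for Col16a1, which was 0.016 with limma-voom and 0.29 with the block. Between LSK and LK it ranged from -0.89 to 0.27 for Col1a2, and in the interaction from -0.45 to 5.86 for Col4a1 and from -3.57 to 0.21 for Col5a1. The collagen share in LK cells turned to 1.09-fold without Col5a1.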
